A study of Mus musculus with 6 samples.

Results

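A set of 10 genes of the oxygen response, the transcription factor subunits HIF1A and EPAS1 and 8 targets of the hypoxia-inducible factors (ANKRD37, NDRG1, CA9, EGLN1, EGLN3, ADM, BNIP3 and P4HA1), was followed in biopsies of lung squamous cell carcinomas from genetically engineered mice. The genes were taken by symbol from a count table of 46937 symbols. All 10 were found there, and all 10 were among the 21201 genes that passed the filter on low counts. Symbols follow the table, which is in capitals and lists the mouse gene Car9 under the human symbol CA9.

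Total RNA of 6 biopsies had been sequenced as stranded paired-end libraries, 3 from PSCN tumours and 3 from PSC tumours. Both groups carry Pik3ca H1047R, which keeps PI3K active, SOX2 overexpression (Sox2OE) and deletion of CDKN2A/B (Cdkn2a/bKO). In PSCN the tumours further express the T1242A mutant of NSD3, an enzyme that methylates histone H3 on lysine, and PSC tumours, labelled NSD3 WT, are the control. The labels name neither the driver of the alleles nor the age of the mice, and do not say whether each biopsy came from its own mouse. The p-values therefore cover the spread among these biopsies alone.

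Hypoxia-inducible factors are pairs of an alpha subunit, HIF1A or EPAS1 (also called HIF2A), with the beta subunit ARNT. In oxygenated cells prolyl hydroxylases of the EGLN family mark the alpha subunit, the VHL ubiquitin ligase recognises the mark and the protein is degraded. At low oxygen the alpha subunit escapes, binds DNA and raises genes of glucose use, acid export, mitochondrial turnover, matrix assembly and vessel growth, EGLN1 and EGLN3 included. Most of this control acts on the protein, so the RNA of HIF1A does not give the activity of the factor. In the lung EPAS1 is known for its high RNA in endothelial and alveolar type 2 cells.

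Total counts ranged from 70979353 to 72807077 in PSCN libraries and from 69563622 to 72281119 in PSC libraries. NSD3 itself stood between 821 and 1931.8 CPM (counts scaled to a common library size) in PSCN and between 79.7 and 102 CPM in PSC, so its level followed the labels. PSC library 3 stood apart from its group. Its log2 CPM values correlated on average at 0.941 with PSCN libraries and at 0.908 with PSC libraries 1 and 2, across genes that are not independent replicates. PSC libraries 2 and 3 came from female mice by XIST and the other 4 from male mice by DDX3Y. The labelled tissue was checked with 5 measured markers of squamous or basal epithelium, summed to between 6309.6 and 19272.6 CPM in PSCN, and to 249, 1479.5 and 4872.3 CPM in PSC libraries 1 to 3. The 4 club cell markers of the normal airway summed to between 567 and 1918.8 CPM in PSCN, and to 26884.9, 17763.9 and 2764.2 CPM in PSC libraries 1 to 3. PSC libraries 1 and 2 thus held more airway RNA and less squamous RNA than the other 4. In bulk RNA, fewer cells of a type and less RNA per cell cannot be told apart.

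Promoters of the targets are shown first, because these factors bind the core letters ACGTG or GCGTG in DNA. RefSeq (GRCm38.p6) gave a promoter, from 250 bases before to 50 bases after its start of the gene, for 8 of the 10 genes, EPAS1 and NDRG1 having no entry in the table. The gene spans given further below are GENCODE's. In ANKRD37 and HIF1A the promoter lies wholly inside that span, so distances to the start are to RefSeq's start. Printed are those of the 5 genes, among these 8, whose level in every PSCN library exceeded that in every PSC library, in the direction of the gene, with every ACGTG and GCGTG on either strand (CACGT and CACGC when read on the printed strand) in capitals. They are ANKRD37 at chr8:45999801-46000100 on the minus strand, EGLN1 at chr8:124949205-124949504 on the minus strand, EGLN3 at chr12:54203825-54204124 on the minus strand, BNIP3 at chr7:138909457-138909756 on the minus strand and P4HA1 at chr10:59323046-59323345 on the plus strand.
ANKRD37: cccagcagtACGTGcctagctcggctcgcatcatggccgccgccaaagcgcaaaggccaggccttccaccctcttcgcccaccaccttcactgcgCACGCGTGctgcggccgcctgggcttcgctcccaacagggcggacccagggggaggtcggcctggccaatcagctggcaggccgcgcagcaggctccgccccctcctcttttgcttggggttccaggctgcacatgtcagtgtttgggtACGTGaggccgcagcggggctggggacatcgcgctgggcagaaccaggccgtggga
EGLN1: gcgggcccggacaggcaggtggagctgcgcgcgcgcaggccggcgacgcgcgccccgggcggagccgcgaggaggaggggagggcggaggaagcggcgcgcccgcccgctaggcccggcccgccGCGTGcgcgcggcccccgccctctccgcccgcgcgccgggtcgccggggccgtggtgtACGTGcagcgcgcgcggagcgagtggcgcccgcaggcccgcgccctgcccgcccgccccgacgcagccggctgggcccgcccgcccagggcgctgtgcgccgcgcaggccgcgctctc
EGLN3: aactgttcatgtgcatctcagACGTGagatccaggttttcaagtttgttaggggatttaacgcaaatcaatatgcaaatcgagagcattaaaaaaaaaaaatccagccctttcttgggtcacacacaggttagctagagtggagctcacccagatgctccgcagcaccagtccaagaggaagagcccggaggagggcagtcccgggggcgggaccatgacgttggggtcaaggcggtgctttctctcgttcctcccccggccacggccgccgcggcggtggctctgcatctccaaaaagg
BNIP3: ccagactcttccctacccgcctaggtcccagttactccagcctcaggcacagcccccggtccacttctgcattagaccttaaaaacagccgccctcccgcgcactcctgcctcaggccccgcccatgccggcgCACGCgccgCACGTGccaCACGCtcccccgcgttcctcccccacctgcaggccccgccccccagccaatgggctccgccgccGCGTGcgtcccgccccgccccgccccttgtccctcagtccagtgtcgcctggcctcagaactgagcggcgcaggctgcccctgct
P4HA1: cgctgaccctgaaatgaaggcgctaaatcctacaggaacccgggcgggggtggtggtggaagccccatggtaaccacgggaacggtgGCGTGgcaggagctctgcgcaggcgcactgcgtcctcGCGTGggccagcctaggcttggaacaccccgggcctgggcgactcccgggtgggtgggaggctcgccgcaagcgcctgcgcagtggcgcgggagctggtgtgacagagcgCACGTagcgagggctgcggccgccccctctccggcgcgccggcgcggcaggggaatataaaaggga
The BNIP3 promoter held the most matches, with 2 of ACGTG, which share the palindrome CACGTG, and 3 of GCGTG. ANKRD37 held 2 of each, and its ACGTG nearest the start lay 6 bases before it. P4HA1 had 1 match of ACGTG, on the opposite strand, and 2 of GCGTG. EGLN1 had 1 of each, and EGLN3 a single ACGTG that lay far from the start, 229 bases before it. Among the promoters not printed, HIF1A held 3 matches of ACGTG, CA9 held 1, on the opposite strand with its first base 18 bases before the start, and ADM held 0 of ACGTG and 2 of GCGTG. The letters ACGTG were thus present in 7 of the 8 promoters, against 19.6% of 32851 mouse promoters of the same length, and either motif in 8 of 8, against 43.8%. These matches describe letters only.

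Across the 10 genes the targets were higher in PSCN with ADM as the exception, HIF1A was higher on average, and EPAS1 was lower on average. In 6 genes, ANKRD37, NDRG1, EGLN1, EGLN3, BNIP3 and P4HA1, every PSCN library exceeded every PSC library, a pattern seen in 15.2% of the genes tested. The other 4 overlapped between the groups. The log2 fold change of PSCN over PSC was positive in 8 of 10, with a median of 1.17, against 49.1% positive and a median of -0.01 over all genes. None of the 10 passed an adjusted p of 0.05 in edgeR's quasi-likelihood test, where 0.00472% of the genes tested did, 1 gene in all. At an unadjusted p under 0.05 there were 6 of the 10 (EPAS1, ANKRD37, NDRG1, EGLN1, BNIP3 and P4HA1), against 21.6% of the genes tested. DESeq2 called 5 of the 10 (ANKRD37, NDRG1, EGLN1, BNIP3 and P4HA1, all higher), where it called 14.0% of genes, and limma-voom with quality weights called all but ADM, 8 higher and 1 lower, where it called 14.3% of genes, 8.43% higher and 5.84% lower. Unweighted limma-voom, added once the data had been seen, called 0 of the 10 and 0 of all genes.

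**Figure D1:**
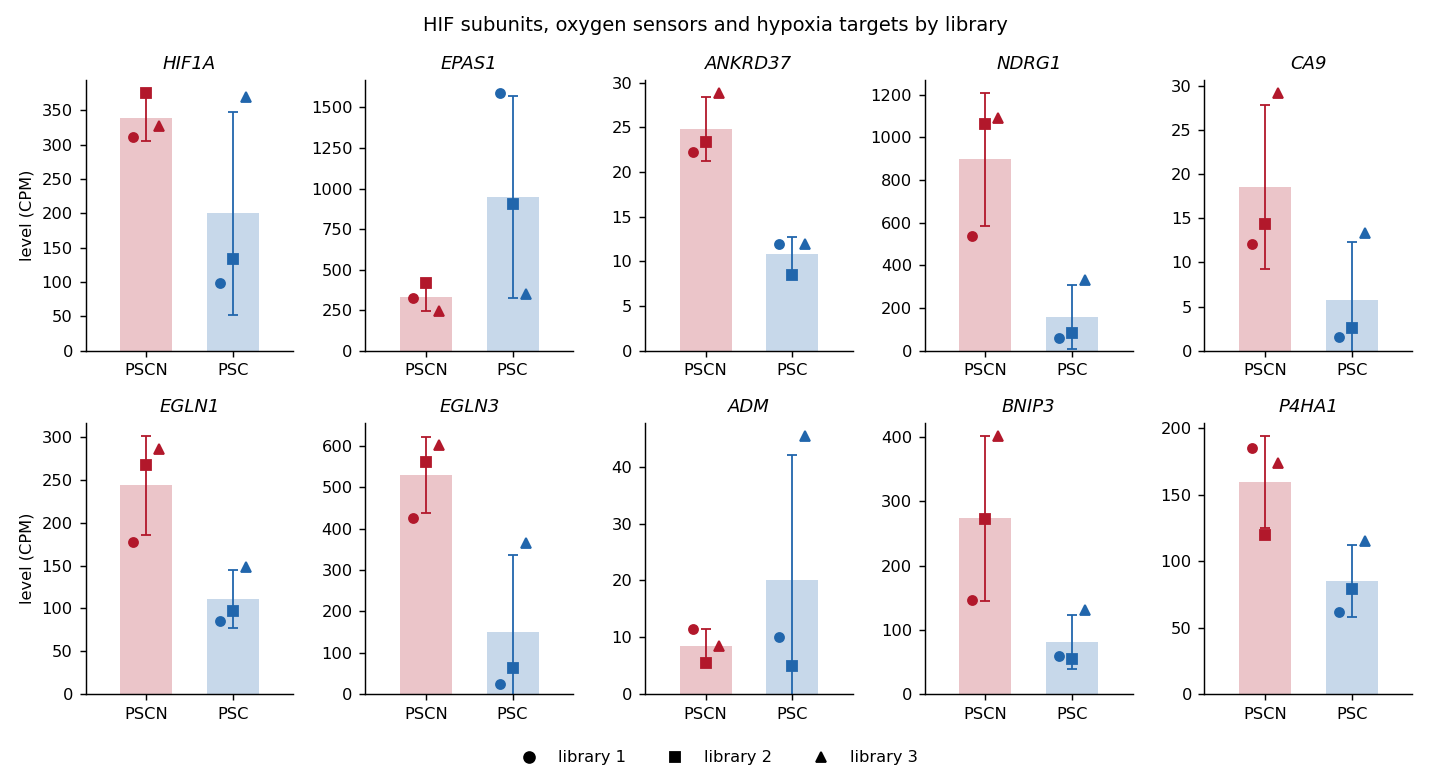
Level of each of the 10 genes in CPM (vertical axis, from 0) by group, with a symbol for each library, bars for the group mean and lines for the SD of 3 libraries, cut off at 0. PSC library 3 is the highest PSC library in 9 genes and the lowest in EPAS1.

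HIF1A (chromosome 12, 73901375 to 73947530, GRCm38), the alpha subunit found in most cell types, had 312, 376 and 328 CPM in PSCN libraries 1 to 3, against 98.2, 133 and 369 CPM in PSC libraries 1 to 3. The PSCN libraries were alike, within 1.2-fold of each other, while the PSC libraries ran over a 3.76-fold range and PSC library 3 lay inside the PSCN range. The fold change on the log2 scale was 0.76 (SE 0.51, adjusted p = 0.404 with edgeR). Without PSC library 3 it was 1.56 (SE 0.21, adjusted p = 0.0403 with edgeR). Leaving out any other library, it ran from 0.43 without PSC library 1 to 0.82 without PSCN library 1, and did not pass.

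EPAS1 (chromosome 17, 86753700 to 86833410) ran the other way, with 325, 419 and 246 CPM in PSCN, against 1591.2, 904 and 348 CPM in PSC libraries 1 to 3. PSC libraries 1 and 2 lay far above every other library, and PSC library 3 lay inside the PSCN range. The mean was 330 ± 86.8 CPM in PSCN and 948 ± 623 CPM in PSC (SD, n = 3 each), with a log2 fold change of -1.52 (SE 0.56, adjusted p = 0.208 with edgeR). Without PSC library 3 it was -1.91 (SE 0.35, adjusted p = 0.0458 with edgeR). Leaving out any other library, it ran from -1.79 without PSCN library 2 to -0.93 without PSC library 1, and did not pass.

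Of the HIF alpha transcripts the balance between both forms differed widely among PSC libraries. Per length of exon, EPAS1 over HIF1A was 1.1, 1.18 and 0.789 in PSCN libraries 1 to 3, against 17.1, 7.15 and 0.994 in PSC libraries 1 to 3. The 3 PSCN tumours and PSC library 3 thus held about as much of one transcript as of the other, while PSC libraries 1 and 2 held mostly EPAS1. The mean log2 ratio was 0.01 ± 0.31 in PSCN and 2.31 ± 2.1 in PSC (SD, n = 3 each), a difference of -2.30. An exact two-sided permutation test over the libraries gave p = 0.3, where 3 against 3 cannot go below 0.1. Leaving out each library in turn, the difference ran from -3.46 without PSC library 3 to -1.40 without PSC library 1.

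Summed markers of endothelium were, like EPAS1, highest in PSC libraries 1 and 2. The 10 endothelial markers summed to 902, 738 and 512 CPM in PSCN, against 2167.9, 1296.6 and 361 CPM in PSC libraries 1 to 3. The order of the PSC libraries was that of EPAS1, and the order of the PSCN libraries was not. In PSCN the sum was highest in library 1 and EPAS1 in library 2. PSC library 3 had the lowest sum of all, while its EPAS1 lay inside the PSCN range. Of these markers 9 of 10 had a negative log2 fold change, with a median of -0.63, 0 passed the test (0 at an unadjusted p under 0.05 in edgeR, and 0 in DESeq2) and none was at 0 in any library. CALCRL, the receptor that adrenomedullin acts on, had the smallest p among them, with 64.8, 92.4 and 66.6 CPM in PSCN and 486, 244 and 39.8 CPM in PSC libraries 1 to 3 (log2 fold change -1.78, SE 0.81, adjusted p = 0.258 with edgeR). On the log2 scale the fold change was -1.05 (SE 0.59) for KDR, the VEGF receptor, -1.38 (SE 0.79) for the angiopoietin receptor TEK and -1.13 (SE 0.72) for the claudin CLDN5, with adjusted p of 0.333, 0.339 and 0.386 in edgeR. In the edgeR fit without PSC library 3, where EPAS1 passed, 3 of the 10 markers passed, against 8.8% of the genes tested and 5.4% called lower. They were CALCRL at -2.28 (adjusted p = 0.0403), KDR at -1.47 (adjusted p = 0.0449) and TEK at -1.88 (adjusted p = 0.044), all lower in PSCN. The median of the 10 was -1.04. In limma-voom with quality weights, where EPAS1 passed too (adjusted p = 0.0454), 0 of the 10 markers did. Alveolar type 2 markers, 6 genes, summed to between 2020.5 and 2638.9 CPM in PSCN and to 6529.8, 11791.8 and 1139.6 CPM in PSC libraries 1 to 3. EPAS1 over the summed endothelial markers, a ratio not planned beforehand, was 0.36, 0.568 and 0.48 in PSCN and 0.734, 0.698 and 0.965 in PSC libraries 1 to 3. The mean log2 ratio differed by -0.78, PSCN minus PSC. An exact two-sided permutation test gave p = 0.1, the lowest that 3 against 3 can give. Leaving out each library in turn, the difference ran from -0.93 without PSCN library 2 to -0.60 without PSCN library 1. How much of the EPAS1 level came from endothelial or alveolar type 2 cells was not tested.

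**Figure D2:**
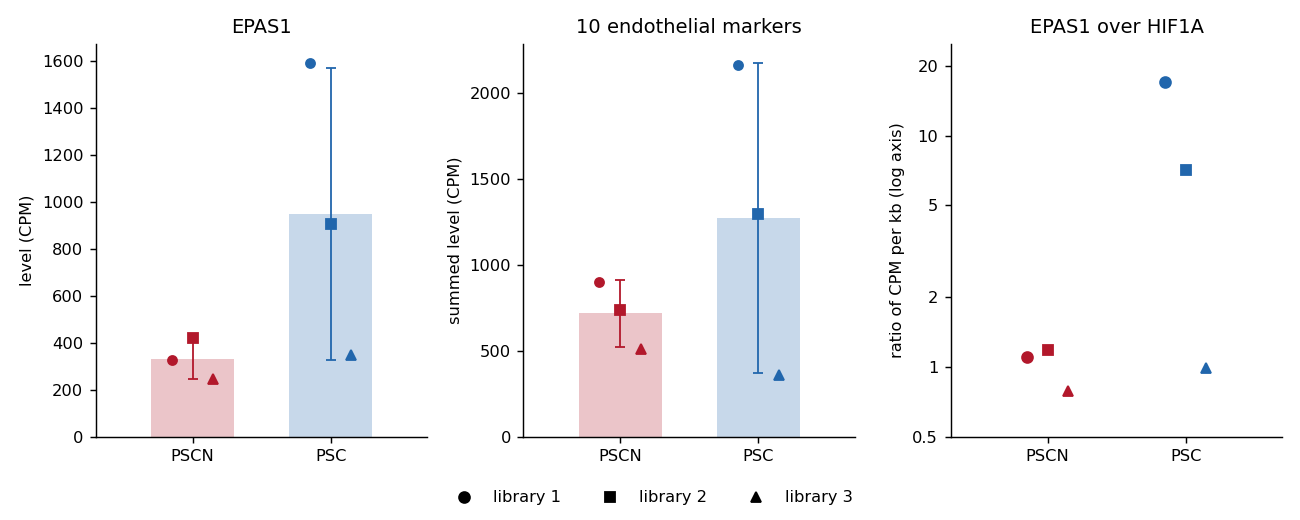
EPAS1 level (CPM), the summed level of 10 endothelial markers (CPM) and the ratio of EPAS1 to HIF1A per kb of exon (log axis), by group and library; bars are means and lines the SD of 3 libraries. EPAS1 and the endothelial sum order the PSC libraries alike but not the PSCN libraries. The ratio is near 1 in every PSCN library and in PSC library 3.

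EGLN1 and EGLN3 are the prolyl hydroxylases that mark the HIF alpha subunits, and both are themselves HIF targets. EGLN1 (chromosome 8, 124908587 to 124949324), the main oxygen sensor of this family, had 178, 268 and 286 CPM in PSCN, against 85.4, 97.4 and 149 CPM in PSC libraries 1 to 3. The lowest PSCN library lay above the highest PSC library, and the log2 fold change was 1.14 (SE 0.29, adjusted p = 0.187 with edgeR). EGLN3 (chromosome 12, 54178981 to 54203860), the strongly inducible form, had 425, 562 and 602 CPM in PSCN, against 24.4, 63.7 and 364 CPM in PSC libraries 1 to 3. The PSC libraries spanned a 14.9-fold range, the widest of the 10 genes, and the PSCN libraries 1.42-fold, so the log2 fold change of 1.81 had an SE of 0.96 (adjusted p = 0.31 with edgeR). Without PSC library 3 it was 3.60 (SE 0.52, adjusted p = 0.0403 with edgeR). Leaving out any other library, it ran from 1.31 without PSC library 1 to 1.95 without PSCN library 1, and did not pass.

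Among the targets, ANKRD37 (chromosome 8, 45996902 to 46005707), an ankyrin repeat protein, had 22.2, 23.4 and 28.9 CPM in PSCN, against 11.9, 8.53 and 12 CPM in PSC libraries 1 to 3. PSC library 3 sat with its own group here, and the groups were clearly apart. The log2 fold change was 1.20 (SE 0.22, adjusted p = 0.167 with edgeR), the smallest adjusted p of the 10, and it stayed between 1.06 and 1.30 without each library in turn. Its exons share 57 bases with UFSP2 and 349 bases with LRP2BP on the opposite strand. UFSP2 stood between 34.81 and 37 CPM in PSCN and between 24.32 and 32.95 CPM in PSC, LRP2BP at or below 3.09 CPM in every library, and the sources used here do not say how strand was treated in counting.

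NDRG1 (chromosome 15, 66929318 to 66969640), a protein induced by stress and in differentiating epithelium, had the largest fold change of the 10. It had 536, 1064.8 and 1090.0 CPM in PSCN, against 58.3, 82.8 and 332 CPM in PSC libraries 1 to 3. Every PSCN library was above every PSC library, and PSC library 3 stood 4.71-fold above the mean of the other PSC libraries. The log2 fold change was 2.51 (SE 0.75, adjusted p = 0.191 with edgeR). The 6 markers of squamous differentiation summed to 3900.4, 6029.9 and 2356.9 CPM in PSCN and 20.4, 312 and 1212.7 CPM in PSC libraries 1 to 3. The sum was thus also higher in PSCN. Within PSCN it was lowest in library 3, where NDRG1 was highest. Most of it was KRT13, at 3688.6, 5035.3 and 2006.3 CPM in PSCN. IVL overlapped between the groups, at 9.83, 19.7 and 4.05 CPM in PSCN and 12.4 CPM in PSC library 3. The part of these markers in the NDRG1 level was not tested.

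CA9 (chromosome 4, 43506966 to 43513729), a membrane carbonic anhydrase that handles acid outside the cell, was low in all libraries. It had 12.1, 14.4 and 29.2 CPM in PSCN, against 1.53, 2.53 and 13.3 CPM in PSC libraries 1 to 3. PSC library 3 overlapped the PSCN libraries, the other PSC libraries did not, and the log2 fold change was 1.68 (SE 0.88, adjusted p = 0.308 with edgeR). Without PSC library 3 it was 3.21 (SE 0.55, adjusted p = 0.044 with edgeR). Leaving out any other library, it ran from 1.18 without PSCN library 3 to 1.92 without PSCN library 1, and did not pass. The antisense transcript GM12454 shares 214 exon bases with CA9 and stood between 1.28 and 2.99 CPM in PSCN and between 1.47 and 2.17 CPM in PSC.

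BNIP3 (chromosome 7, 138890836 to 138909519), a mitophagy receptor of the outer mitochondrial membrane, had 146, 272 and 402 CPM in PSCN, against 59.3, 53.8 and 130 CPM in PSC libraries 1 to 3. The groups did not overlap, though PSCN library 1 and PSC library 3 lay close together. The log2 fold change was 1.75 (SE 0.51, adjusted p = 0.191 with edgeR). P4HA1 (chromosome 10, 59323296 to 59373304), a catalytic subunit of the prolyl hydroxylase that stabilises collagen, had 185, 120 and 174 CPM in PSCN, against 62, 79 and 115 CPM in PSC libraries 1 to 3. Here the nearest libraries, PSCN library 2 and PSC library 3, differed little, and the log2 fold change was 0.90 (SE 0.29, adjusted p = 0.194 with edgeR). Without PSC library 3 neither passed, BNIP3 with an adjusted p of 0.0505 and P4HA1 with 0.0535 in edgeR.

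ADM (chromosome 7, 110627661 to 110629820), the precursor of the vasodilator adrenomedullin, was the exception among the targets. It had 11.4, 5.5 and 8.44 CPM in PSCN, against 10.1, 4.95 and 45.4 CPM in PSC libraries 1 to 3. Apart from PSC library 3, which stood 6.04-fold above the mean of the other PSC libraries, both groups covered the same range. The log2 fold change was -1.25 (SE 0.83, adjusted p = 0.4 with edgeR) and 0.18 without PSC library 3 (SE 0.46, adjusted p = 0.814 with edgeR), so its direction rested on that library.

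PSC library 3 therefore weighed on most of the 10 genes. It was the highest PSC library in 9 of them, and it lay inside the PSCN range in HIF1A, EPAS1 and CA9. As the highest over the lowest library, the PSC range was wider than the PSCN range in 9 of 10 genes with it and in 4 of 10 without it. Leaving out a library can only narrow a range, so this drop does not measure the weight of PSC library 3. Without it, edgeR called HIF1A, ANKRD37, NDRG1, CA9, EGLN1 and EGLN3 higher and EPAS1 lower, 7 of 10, where 8.8% of the genes tested were called, 3.39% higher and 5.4% lower. With it, 0 of 10 were called, also when any other library was left out. In each of the 7 genes PSC library 3 was the PSC library nearest the PSCN mean. Leaving it out therefore had to widen the difference. The authors' deposited table, which used all 6 libraries in DESeq2, has ANKRD37 (adjusted p = 0.000216), NDRG1 (0.0104), EGLN1 (0.0181) and BNIP3 (0.0197) past 0.05, 4 of 10 and all higher, where 12.0% of the genes with an adjusted p were called and 3.92% were called higher.

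**Figure D3:**
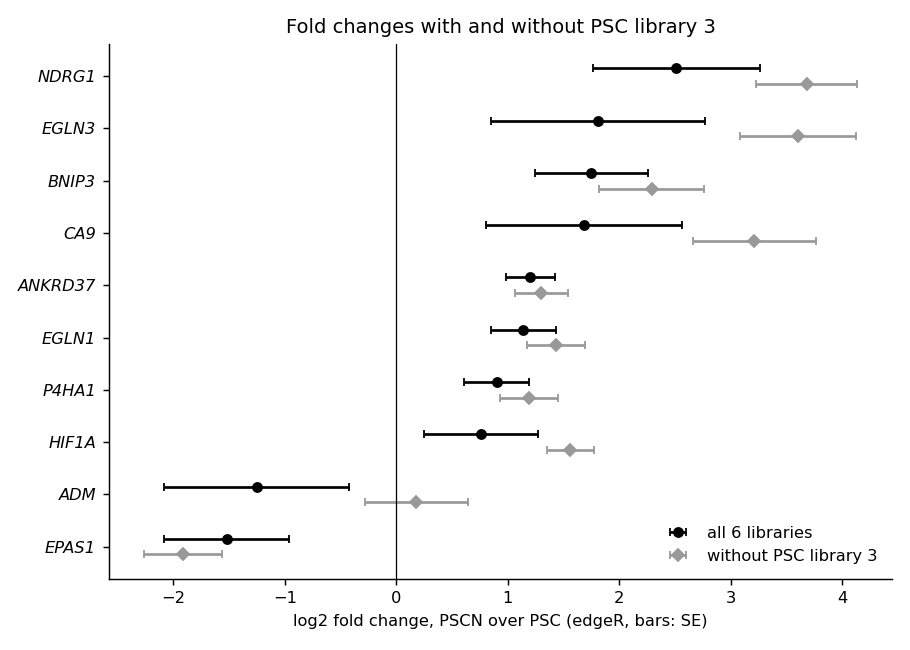
Log2 fold change of PSCN over PSC for the 10 genes (horizontal axis) with all 6 libraries (black) and without PSC library 3 (grey); lines are SE from edgeR. Leaving out the library moves NDRG1 to 3.68, EGLN3 to 3.60 and CA9 to 3.21, moves ANKRD37 little, and turns ADM to 0.18.

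Per length of exon the order of the 10 transcripts differed between groups. In PSCN the mean level in CPM per kb was highest for EGLN3 (199 ± 34.9), then NDRG1 (136 ± 47.4), BNIP3 (121 ± 56.6), EGLN1 (67.9 ± 16), EPAS1 (59 ± 15.5), HIF1A (57.4 ± 5.62), P4HA1 (38.7 ± 8.43), ANKRD37 (16.1 ± 2.33), CA9 (8.06 ± 4.04) and ADM (5.22 ± 1.82; SD, n = 3 each). The libraries of neighbours in this order overlapped in 6 of 9 pairs, the exceptions being HIF1A with P4HA1, P4HA1 with ANKRD37 and ANKRD37 with CA9. In PSC the order began with EPAS1 (170 ± 111) and EGLN3 (56.7 ± 69.9) and ended with ANKRD37 (7.01 ± 1.28) and CA9 (2.51 ± 2.83), and all 9 pairs of neighbours overlapped. EPAS1 thus led the PSC mean and stood at place 5 in PSCN.

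The wider pathway was read from 10 lists by role, of which 97 of 98 genes were tested, EPO not passing the filter. In edgeR 0 of the 97 passed the adjusted threshold, and 39 had an unadjusted p under 0.05, against 21.6% of all genes tested. DESeq2 called 25 higher and 2 lower, where it called 5.31% of all genes higher and 8.65% lower. In 37 of the 97 every PSCN library exceeded every PSC library, against 15.2% of genes. The median log2 fold change was 0.49 over the 97 genes and 0.43 over the 87 that are not among the 10, against -0.01 over all genes.

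The 5 HIF subunits had a median log2 fold change of -1.10, which was -0.50 without PSC library 1. ARNT, the shared beta subunit, had a log2 fold change of 0.06 (SE 0.16), with 53.3 ± 5.5 CPM on average in PSCN against 51.1 ± 6.67 CPM in PSC (SD, n = 3 each). HIF3A, an alpha form that can restrain the others, was low, with 0.7, 0.324 and 1.21 CPM in PSCN and 10.7, 1.33 and 1.23 CPM in PSC libraries 1 to 3. Among the 9 genes of oxygen sensing and HIF turnover the median log2 fold change was 0.25 (0.42 when PSC library 3 was left out and 0.15 when PSCN library 3 was) and 7 were positive, against 49.1% of all genes. EGLN2, the hydroxylase that hypoxia does not induce, was lower in every PSCN library, at 61.1 ± 2.21 CPM against 76.1 ± 9.51 CPM in PSC (log2 fold change -0.32, SE 0.14, adjusted p = 0.248 with edgeR). The VHL complex members ELOB, CUL2 and ELOC had log2 fold changes of 0.43 (SE 0.12), 0.35 (SE 0.18) and 0.25 (SE 0.14). Cofactors and antagonists had a median of -0.10, which ran from -0.21 without PSCN library 2 to 0.01 without PSCN library 1 and was -0.01 without PSC library 3. CITED2, which competes with HIF for the coactivator p300, stood at 151 ± 43.9 CPM in PSCN and 77.5 ± 23.4 CPM in PSC, and its lowest PSCN library was above its highest PSC library (log2 fold change 0.96, SE 0.31, adjusted p = 0.195 with edgeR). Its relative CITED4 was lower, at 1.66 ± 0.686 CPM in PSCN and 10.3 ± 7.69 CPM in PSC (log2 fold change -2.64, SE 0.74). RACK1, an adaptor linked to HIF1A breakdown, and SART1, a splicing factor, had log2 fold changes of 0.79 (SE 0.21) and 0.33 (SE 0.12).

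Genes of glucose use had the highest median of the lists, 1.34, with 16 of 17 positive, against 49.1% of all genes, and 11 in which every PSCN library exceeded every PSC library, against 15.2% of all genes. ALDOA, the aldolase of glycolysis, stood at 949, 1415.4 and 1686.1 CPM in PSCN and 429, 424 and 791 CPM in PSC libraries 1 to 3. PFKL, PGAM1 and TPI1, further enzymes of the pathway, had log2 fold changes of 1.34 (SE 0.39), 1.71 (SE 0.52) and 1.60 (SE 0.50). The 4 neutrophil markers summed to 210, 671 and 1090.8 CPM in PSCN and to 30.7, 64.5 and 453 CPM in PSC libraries 1 to 3. Within each group this sum ordered the libraries as the mean centred log2 level of the list did. That level was 0.14, 0.84 and 0.95 in PSCN and -1.07, -0.89 and 0.03 in PSC libraries 1 to 3. S100A8 and S100A9, at 581 and 426 CPM in PSCN library 3, each kept this order. The receptors CSF3R and CXCR2 kept it in PSC but not in PSCN, at 49.9, 75.1 and 66.3 CPM and at 10.1, 21.5 and 17.9 CPM. In PSC library 3 these receptors stood at 73.5 and 25.9 CPM. The part of neutrophils in these levels was not tested. The mitochondrial list, with a median of 0.72, held the mitophagy receptor BNIP3L, a relative of BNIP3, at 150 ± 42 CPM in PSCN and 74.1 ± 11.8 CPM in PSC (log2 fold change 1.02, SE 0.26, adjusted p = 0.187 with edgeR). NDUFA4L2, a HIF1 target that lowers respiration, had 104, 368 and 198 CPM in PSCN and 10.2, 20.7 and 73.6 CPM in PSC libraries 1 to 3. The log2 fold changes of HIGD1A, a mitochondrial survival protein, and of the protease LONP1 were 1.42 (SE 0.40) and 0.42 (SE 0.16).

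The pH and ion list of 5 genes had a median of 1.09, which was 1.72 without PSC library 3, and was split. CA12, a second membrane carbonic anhydrase, had 157, 201 and 383 CPM in PSCN and 1.09, 46.4 and 90.3 CPM in PSC libraries 1 to 3, while the bicarbonate transporter SLC4A4 had 6.43, 12.5 and 8.18 CPM in PSCN and 52, 34.9 and 13.8 CPM in PSC libraries 1 to 3. For SLC16A3, which exports lactate, the log2 fold change was 1.09 (SE 0.51). CA12 lay above and SLC4A4 below the other group in every PSCN library, with log2 fold changes of 2.43 (SE 1.29) and -1.89 (SE 0.53).

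Feedback and transcription targets had a median of 0.40, and of 0.24 without PSCN library 2. In this list MXI1, a MYC antagonist, stood at 68.5 ± 6.44 CPM in PSCN and 50.5 ± 3.19 CPM in PSC, and the log2 fold changes were 0.63 (SE 0.27) for the histone demethylase KDM3A, 0.80 (SE 0.40) for the repressor BHLHE40 and 0.94 (SE 0.36) for the small MAF protein MAFF. Stress and growth targets were positive in 13 of 13 genes, against 49.1% of all genes, with a median of 0.49. FAM162A, a mitochondrial protein of hypoxic cell death, had 119, 290 and 239 CPM in PSCN and 31.3, 32.7 and 84.2 CPM in PSC libraries 1 to 3 (log2 fold change 2.13, SE 0.53, adjusted p = 0.187 with edgeR). ERO1A, the oxidase of disulfide formation in the endoplasmic reticulum, had 305, 817 and 1008.3 CPM in PSCN and 49.1, 69.9 and 300 CPM in PSC libraries 1 to 3, with PSC library 3 just under PSCN library 1. For the lipoprotein receptor VLDLR the log2 fold change was 0.43 (SE 0.15), and for the transferrin receptor TFRC 0.49 (SE 0.19).

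Collagen and matrix targets had a median of 0.66 with PSCN library 1 and of 0.23 without it. P4HA2, the sister subunit of P4HA1, had 96.1, 58.9 and 76.2 CPM in PSCN and 49.6, 43.2 and 54 CPM in PSC libraries 1 to 3. The lysyl hydroxylases of collagen PLOD2 and PLOD1 differed by 0.93 (SE 0.37) and 0.49 (SE 0.32) on the log2 scale. LOXL4, a lysyl oxidase relative, had 25.8, 1.11 and 1.26 CPM in PSCN and 3.08, 2.02 and 1.7 CPM in PSC libraries 1 to 3, so its log2 fold change of 2.05 (SE 1.28) became -0.92 without PSCN library 1. The 6 fibroblast markers summed to 36990.6, 1293.3 and 773 CPM in PSCN and to between 861 and 2644.3 CPM in PSC, and their part in these levels was not tested.

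Vascular and peptide targets, the list that holds ADM, had a median of 0.01, with 6 positive and 6 negative, and without PSC library 1 the median was 0.33. HMOX1, the haem oxygenase, was the clearest, with 120, 86.2 and 100 CPM in PSCN and 30.7, 42.4 and 55.7 CPM in PSC libraries 1 to 3 (log2 fold change 1.25, SE 0.26, adjusted p = 0.173 with edgeR). It is also a target of other stress factors. For the growth factor PGF the log2 fold change was 1.56 (SE 0.49), for the vessel ligand ANGPT2 0.52 (SE 0.24), whereas VEGFA, the best known angiogenic target, had 0.04 (SE 0.24, adjusted p = 0.93 with edgeR).

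**Figure D4:**
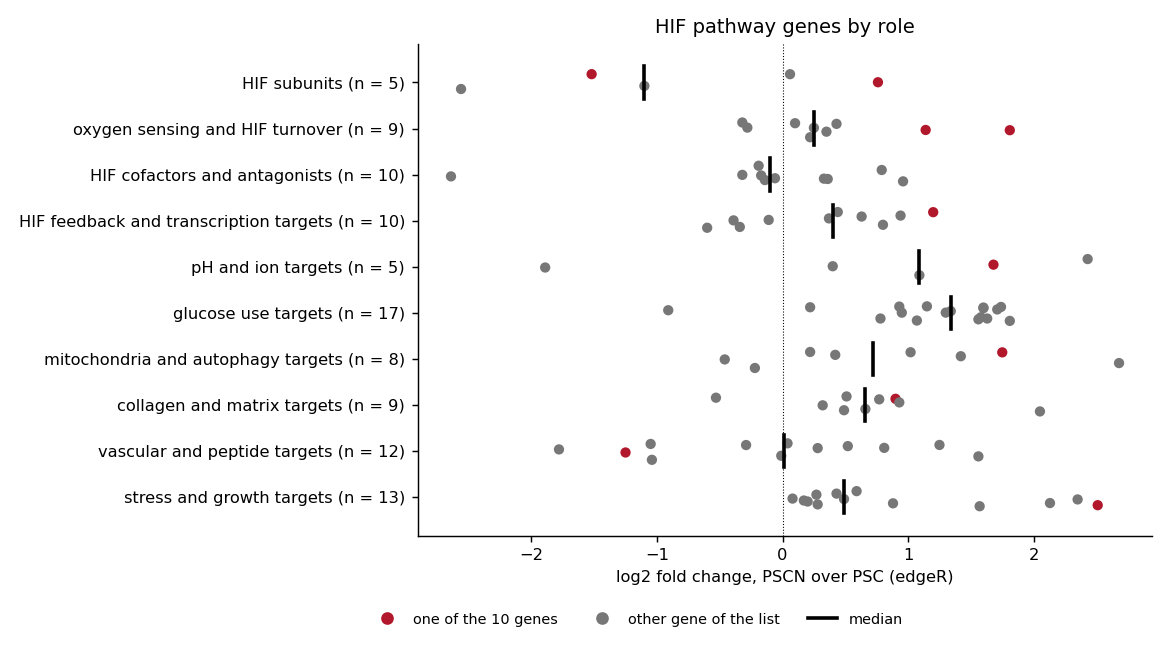
Log2 fold change of PSCN over PSC (horizontal axis) for each tested gene of the 10 HIF pathway lists; red points are the 10 genes, grey points the other genes and black lines the list medians. The glucose use list lies furthest right with a median of 1.34, and the vascular list straddles 0 with a median of 0.01 (0.33 without PSC library 1).

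Genes with the most similar profile were sought among 10857 genes with a mean of at least 10 CPM, by Pearson's r of log2 CPM over the 6 libraries, as a description. For HIF1A they were SUSD1 (r = 0.999), the phosphatase DUSP5 (0.996) and NPLOC4 (0.996). DUSP5 had 57.2, 63.8 and 57 CPM in PSCN and 9.66, 14.2 and 58.8 CPM in PSC libraries 1 to 3, again with PSC library 3 at the PSCN level. For EPAS1 they were the laminin chain LAMA2 (0.995), the proline dehydrogenase PRODH (0.994) and AGTPBP1 (0.993). ANKRD37 was nearest to the translation factor subunit EIF2B4 (0.996), SFMBT2 (0.996) and RWDD1 (0.99), and NDRG1 to the glycolytic PGAM1 (0.999), SPRYD4 (0.998) and GTF2E2 (0.998). With 6 libraries such values are common: 329 genes exceeded an r of 0.95 with HIF1A, 98 with EPAS1, 89 with ANKRD37 and 738 with NDRG1.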

How the data were processed

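RNA of 6 tumour biopsies was compared, PSCN against PSC. Per the submitters' processing notes, Trimmomatic, HISAT2, StringTie and DESeq2 were used with GRCm38, without versions. The authors deposited estimated counts per gene symbol, as whole numbers, and the table's columns were assigned to samples by their letter and number. They also deposited DESeq2's mean normalized signal, log2 fold changes, a Wald score and p-values, per the file headers; of these only log2 fold changes and adjusted p-values were used.

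Counts were filtered with filterByExpr (minimum count 10), normalized with TMM factors and tested with edgeR 4.0.16 (quasi-likelihood F test) in R 4.3.3, with Benjamini-Hochberg adjustment over all 21201 genes tested and a threshold of 0.05. SE is the absolute log2 fold change over the square root of F. Exon lengths and positions came from GENCODE M21, promoters from RefSeq GRCm38.p6. Reads were not tagged with molecular identifiers, so counts are not independent molecules. Named genes were the 10 members, up to 4 others with the smallest p per list, and the 3 of highest r for 4 members; VEGFA and the further markers came in after their values were seen, and 1 gene the rule named is not reported here. Members and lists were chosen with earlier results of these data known. The fits were tested on simulated data. Alternatives were RLE and upper quartile factors, DESeq2 1.42.0, limma-voom (limma 3.58.1), other filters, each library left out and a replicate block, and, added after seeing the data, sex as a covariate and limma-voom without quality weights.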

Additional observations from a re-analysis of the deposited data

How the results depend on the processing

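Of all genes, edgeR called 1 higher and 0 lower. DESeq2 called 1126 higher and 1834 lower, limma-voom with quality weights 1788 and 1238, and the filter of 1 CPM in 3 libraries gave 3 higher. A replicate block, sex as a covariate and limma-voom without quality weights gave 0 higher, and 0 lower as well. Leaving out each library in turn gave from 0 to 751 higher and from 0 to 1195 lower, the upper ends without PSC library 3. Of the 10 genes, edgeR called 0, DESeq2 5, limma-voom with quality weights 9, and leave-one-out fits from 0 to 7; of the 97 pathway genes the counts were 0, 27, 36 and from 0 to 28. The median of the 10 genes ran from 1.03 to 1.49 without each library and was 1.65 with sex as a covariate. All PSCN libraries were male, and PSC library 1 was the only male PSC library. With sex in the model the group difference therefore rested on PSC library 1 alone. ADM turned to 0.23 with limma-voom with quality weights and ran from -1.72 to 0.18 without each library in turn, the upper end without PSC library 3. ARNT, near 0, turned to -0.0021 with upper quartile factors, to -0.0031 without PSC library 2 and to -0.0099 without PSCN library 2, its lowest, against 0.19 without PSC library 3. LOXL4 ran from -0.92 without PSCN library 1 to 2.53 without PSCN library 3. The cause of these moves was not tested.

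The labels do not say whether replicate numbers pair the samples. Same-numbered libraries deviated from their group means with correlations of 0.186, -0.053 and 0.016. These run over genes that are not independent replicates and cannot settle whether a pairing existed. With the block, 0 genes were called in edgeR. Without PSC library 3, PSC has 2 libraries. The lowest count among the 10 genes was 113, CA9 in PSC library 1.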
